A study of Arabidopsis thaliana with 12 samples.

Results

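The genes described here lie in the pericentromeric windows of the 5 Arabidopsis chromosomes but are not annotated as transposons. They were taken as the probe sets of 1 nuclear locus whose RefSeq type is neither pseudogene nor transcribed pseudogene, from AT1G32000 to AT1G48000, AT2G03500 to AT2G16500, AT3G27800 to AT3G47000, AT4G03400 to AT4G10100 and AT5G25900 to AT5G40000. Members were also selected on their measured signal, since each had to reach a log2 signal of 2.98 on at least 2 of the 12 arrays. Of 1398 such probe sets 789 reached it, for 784 loci, against 8283 of 11019 probe sets of the same type outside the windows and 17197 of 22746 in the whole series. The windows of chromosomes 1 to 5 held 174, 150, 167, 92 and 206 members.

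RNA came from whole seedlings in liquid culture, 4 groups with 3 Affymetrix ATH1 arrays each. Ws seedlings, the wild type of ecotype Ws, received only the solvent DMSO. Treated Ws seedlings received either 5-AC (5-aza-2′-deoxycytidine, which blocks DNA methylation) at 20 mg/L or the histone deacetylase inhibitor TSA (trichostatin A) at 2.5 mg/L, both in DMSO. The *ddm1* group was a mutant of the DDM1 chromatin remodeller with a T-DNA insertion in the Ws background, and it also received DMSO. The mutant was 1 insertion line, selfed over generations after a backcross. Media with supplements were replaced after 5 days, and the labels give the seedlings as 10 days old. The study calls its replicates biological.

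Pericentromeric chromatin of plants is packed with transposons and repeats that are kept silent by dense DNA methylation and by methylation of histone H3, while ordinary genes lie scattered among them. DDM1 lets DNA methyltransferases reach this compact chromatin, and a mutant loses methylation there over generations, whereas 5-AC traps DNA methyltransferases in cells that replicate their DNA. TSA acts on histone acetylation and does not target DNA methylation itself. A gene next to a transposon can share its silencing, and QQS is a known example.

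The label of the windows was checked against the annotation. Of 7170 annotated nuclear loci inside them 46.7% had the RefSeq type pseudogene, which this annotation gives to transposable element genes, and in the central part of the windows, the middle 50% by locus number, 68.4% did. Outside the windows the share was 2.26%. Among the 10 nearest genes of a member, 5 on each side, the median number of such loci was 2, with a range of 0 to 10, and 34.6% of the members had one directly beside them against 2.76% of the genes outside.

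The signal filter that chose the members uses values of all 4 groups, so it is no result. In all 12 arrays 576 members were at or above it, and 755 reached it in 2 groups or more. Only in 5-AC arrays did 13 members reach it, only in TSA arrays 15, only in *ddm1* arrays 4 and only in Ws arrays 2. These members had to be high in 1 group to be included, and 92 members had a Ws mean below the filter. Just outside the filter were AT2G04070 at 2.964, AT1G33640 at 2.966 and AT4G03930 at 2.975 as their second-highest value, and just inside were AT5G39020 at 2.986, AT1G47470 at 2.987 and AT2G16230 at 2.990. Probe sets for a single sequence made up 758 of the members, and the other 31 are of types that can also detect related sequences.

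Replicate arrays correlated with r from 0.96 to 0.99 over the probe sets tested, across genes that are not independent. The root marker PYK10 read 11.94 to 12.85 over all arrays and was lower after 5-AC by limma, with a log2 change of -0.52 (adjusted p = 0.039). Its call was lost without 5-AC replicate 1 or 3 or Ws replicate 2, with limma adjusted p up to 0.16. The root hair gene EXPA7 had log2 signals of 3.88 to 5.45 in Ws and 1.89 to 2.50 after 5-AC, a change of -2.40. Leaf, seed and pollen markers were not named by the platform table and were not checked here. In bulk seedlings fewer cells of a type and less RNA per cell cannot be told apart, and the part of the lower root marker signals in the results after 5-AC was not tested. The probe set of DDM1 itself, which lies outside the windows, read 4.64 to 5.21 in Ws 7.59 to 7.91 in *ddm1* and 7.04 to 7.53 after 5-AC, log2 changes of 2.82 and 2.38 (limma adjusted p = 1.9e-06 and 1.6e-06); where its probes lie relative to the insertion is not given in the sources used here, so it does not check the labels.

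Few members changed in *ddm1*. Signals of 15 of 789 members rose against Ws (1.90%) and those of 4 fell (0.507%). Over all probe sets tested, transposons included, 1.35% were higher and 0.215% lower. Outside the windows 31 of 8283 genes of the same type were higher (0.374%) and 16 lower (0.193%). The median log2 change of the members was -0.07, against -0.03 over all probe sets. The tests were made with limma on all 12 arrays, with Benjamini-Hochberg adjustment over all probe sets tested and a threshold of 0.05; without adjustment 31 members were higher and 44 lower. With arrays scaled to 3 reference genes 13 were higher and 7 lower, 65.0% higher among those called instead of 78.9%. By the methods' t-test, with the same adjustment, 0 of these 19 calls held (adjusted p from 0.080 to 0.77), AT1G36240, QQS and SQN below included; it called 2 other probe sets, both for AT2G07360.

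**Figure D1:**
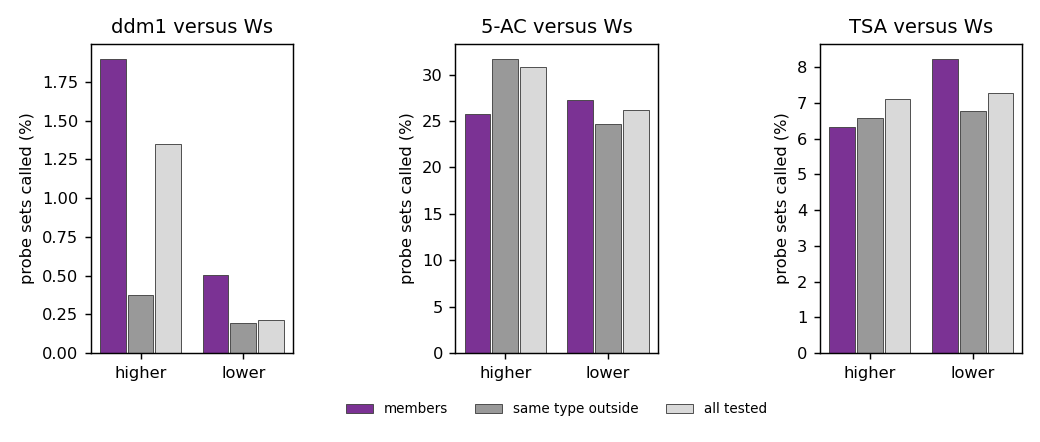
Share of probe sets called higher or lower than Ws (%, limma, adjusted p under 0.05) in *ddm1*, 5-AC and TSA seedlings, for the 789 members, the 8283 genes of the same type outside the windows and all 17197 probe sets tested. The vertical scales differ between panels; in *ddm1* the bars for higher signal stand at 1.90% of the members and 0.374% of the genes outside.

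The highest change in *ddm1* belonged to AT1G36240, annotated by the study as RPL30A, a protein of the large subunit of the cytosolic ribosome. Its log2 signals were 3.45, 5.25 and 3.65 in Ws, 11.32, 10.94 and 11.10 in *ddm1*, 9.40, 9.63 and 9.10 after 5-AC, and 5.08, 5.50 and 5.91 after TSA. All *ddm1* and 5-AC arrays lay above all Ws arrays, and the TSA arrays overlapped Ws through the second Ws array. The log2 change in *ddm1* was 7.01 ± 0.40 (SE, n = 3 per group; 129-fold, limma adjusted p = 5.9e-07). It was 5.26 ± 0.40 after 5-AC (adjusted p = 1.5e-06) and 1.38 ± 0.40 after TSA (adjusted p = 0.044), and the TSA call was lost without any 1 TSA array and without Ws replicate 1 or 3, with adjusted p up to 0.15.

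QQS (AT3G30720), a gene of starch and nitrogen partitioning known to be silenced by DNA methylation, read 3.11, 4.36 and 3.11 in Ws and 8.67, 8.53 and 8.38 in *ddm1*. After 5-AC it read 8.33, 8.07 and 8.44, and after TSA 3.12, 3.19 and 3.15. The *ddm1* and 5-AC arrays thus stood apart from the other 6. The log2 changes were 5.00 ± 0.28 in *ddm1* (32.0-fold, limma adjusted p = 5.2e-07), 4.75 ± 0.28 after 5-AC (adjusted p = 2.6e-07) and -0.37 ± 0.28 after TSA (adjusted p = 0.43). All 5 neighbours before QQS in gene order, counted without regard to strand, were of pseudogene type, as were 7 of its 10 neighbours.

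AT3G43740, a leucine-rich repeat family protein, also stood higher in *ddm1* and after 5-AC than in Ws. Its signals were 3.29, 3.28 and 2.77 in Ws, 5.71, 5.91 and 6.25 in *ddm1*, 6.29, 6.10 and 6.34 after 5-AC, and 3.35, 3.26 and 3.21 after TSA. The log2 changes were 2.85 ± 0.18 in *ddm1* and 3.13 ± 0.18 after 5-AC (limma adjusted p = 1.2e-06 and 1.8e-07), and 0.16 ± 0.18 after TSA did not pass (adjusted p = 0.60).

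AT3G44070, for which no description was at hand, was near the floor of the signal in every group but *ddm1*. It read 2.01, 2.05 and 1.99 in Ws, 6.52, 6.04 and 5.99 in *ddm1*, 2.01, 2.18 and 2.06 after 5-AC, and 2.07, 2.08 and 2.05 after TSA. Its log2 change was 4.17 ± 0.14 in *ddm1* (limma adjusted p = 8.3e-09) and 0.07 ± 0.14 after 5-AC (adjusted p = 0.71). It reached the filter in *ddm1* arrays alone and therefore had to differ.

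SQN (AT2G15790), a cyclophilin 40 that acts in the change from juvenile to adult leaves, was not near the floor. It read 5.67, 5.83 and 5.68 in Ws, 7.45, 7.09 and 7.53 in *ddm1*, 5.55, 5.38 and 5.81 after 5-AC, and 5.31, 5.59 and 5.76 after TSA. Only the *ddm1* arrays stood above the Ws arrays. The log2 change was 1.63 ± 0.17 in *ddm1* (3.09-fold, limma adjusted p = 0.00014) against -0.15 ± 0.17 after 5-AC and -0.17 ± 0.17 after TSA (adjusted p = 0.49 and 0.56). Compared directly, SQN was lower after 5-AC than in *ddm1*, with a log2 difference of -1.78 ± 0.17 (adjusted p = 7.3e-06).

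**Figure D2:**
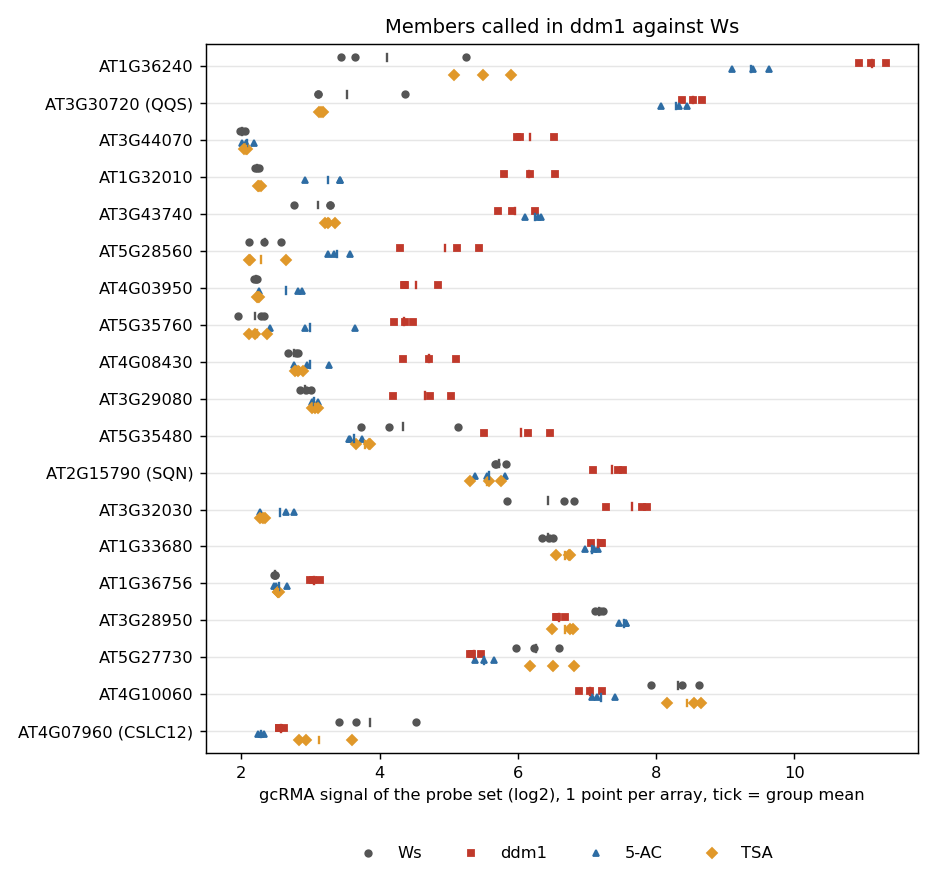
Log2 gcRMA signals of the 19 members called in *ddm1* against Ws, 1 point per array with a tick at each group's mean, ordered by their change. For the upper 15 the *ddm1* squares lie to the right of the Ws circles, and for the lower 4 they lie to the left.

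The other members higher in *ddm1* were AT1G32010 (3.94), AT5G28560 (2.61), AT4G03950 (2.32), AT5G35760 (2.16), AT4G08430 (1.96), AT3G29080 (1.72), AT5G35480 (1.71), AT3G32030 (1.21), AT1G33680 (0.73) and AT1G36756 (0.57), given as log2 changes. In that order their changes after 5-AC, against the same Ws arrays, were 1.03, 1.05, 0.44, 0.80, 0.24, 0.13, -0.71, -3.88, 0.64 and 0.06. Those of AT1G32010, AT5G28560, AT5G35760 and AT1G33680 rose and that of AT3G32030 fell by limma, while the other 5 did not pass. The probe set of AT1G32010 and that of AT3G32030 can also detect related sequences. AT1G33680 has a further probe set at 0.10, which did not pass. Of the 15 members, 6 were near the floor in Ws, that is below the 25th percentile of each Ws array, and 3 reached the filter only in *ddm1* arrays (AT3G44070, AT4G03950 and AT1G36756). With each array left out in turn, 12 of the 15 calls held; AT1G36756, AT3G32030 and AT5G35480 lost theirs, with adjusted p up to 0.084, 0.20 and 0.11.

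AT3G32030, annotated by the study as a terpene synthase family protein that shares its probe set with AT3G31415, had the opposite direction after the treatments. It read 6.67, 6.81 and 5.84 in Ws, 7.28, 7.80 and 7.87 in *ddm1*, 2.64, 2.76 and 2.27 after 5-AC, and 2.27, 2.34 and 2.32 after TSA. Its log2 changes were 1.21 ± 0.25, -3.88 ± 0.25 and -4.13 ± 0.25 (limma adjusted p = 0.040, 4.7e-07 and 6.3e-06). The call in *ddm1* was lost without Ws replicate 1 or 3 or *ddm1* replicate 2 or 3. The platform table pairs this probe set with AT3G32030 alone, so it was kept as a member. Which of these loci gave the signal is not known, and the neighbours counted below are those of AT3G32030.

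The 4 members lower in *ddm1* were CSLC12 (AT4G07960), a cellulose synthase-like protein of cell wall xyloglucan synthesis, at -1.29 ± 0.27, AT4G10060 at -1.26 ± 0.20, AT5G27730 at -0.89 ± 0.19 and AT3G28950 at -0.58 ± 0.12 (limma adjusted p = 0.039, 0.0051, 0.045 and 0.030). CSLC12 read 4.52, 3.41 and 3.66 in Ws and 2.55, 2.55 and 2.62 in *ddm1*. With the replicate number as a block AT3G28950 had an adjusted p of 0.053. Only the call of AT4G10060 held with each array left out in turn. The count of 4 fell to 2 without Ws replicate 1 or 2 or *ddm1* replicate 1 or 2, and to 1 without *ddm1* replicate 3.

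Loci of pseudogene type were counted around the members raised in *ddm1*. The median number among the 10 nearest genes was 4 for the 15 members and 2 for the 770 that were not called. A locus of pseudogene type lay directly beside 10 of the 15 (66.7%) and beside 34.0% of those not called. These are counts, and no test was made of their difference. The 15 include AT3G44070, AT4G03950 and AT1G36756, which reached the filter only in *ddm1* arrays and had to differ. They were not set apart in these counts. AT1G33680 had none among its 10 neighbours. AT1G36756, whose call was lost without any 1 Ws or *ddm1* array, had 8.

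Some of these neighbours had a probe set that the platform table names for 1 locus and that passed the signal filter. Neighbours with a probe set under the filter were left out, so those given here had to have signal. AT5G28570, of pseudogene type and directly beside AT5G28560, rose by 2.26 in *ddm1* on the log2 scale, and AT4G03970, of the same type and 3 genes from AT4G03950, rose by 0.98 (limma adjusted p = 7.2e-06 and 0.00015), the latter on a probe set that can also detect related sequences. AT1G33660, of transcribed pseudogene type and near AT1G33680, had a change of -0.15 that did not pass. Of 15 probe sets for 14 loci of other types within 5 genes of a raised member, 0 were called in *ddm1* in either direction. Their log2 changes ran from -0.41 to 0.28. Over all probe sets tested 1.35% were higher and 0.215% lower, so a set of 15 would seldom hold a call. Beside the lowered gene CSLC12 the pseudogene-type locus AT4G08000, 5 genes away, rose by 6.09 in *ddm1* (adjusted p = 2.2e-09), also on a probe set of that kind.

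**Figure D3:**
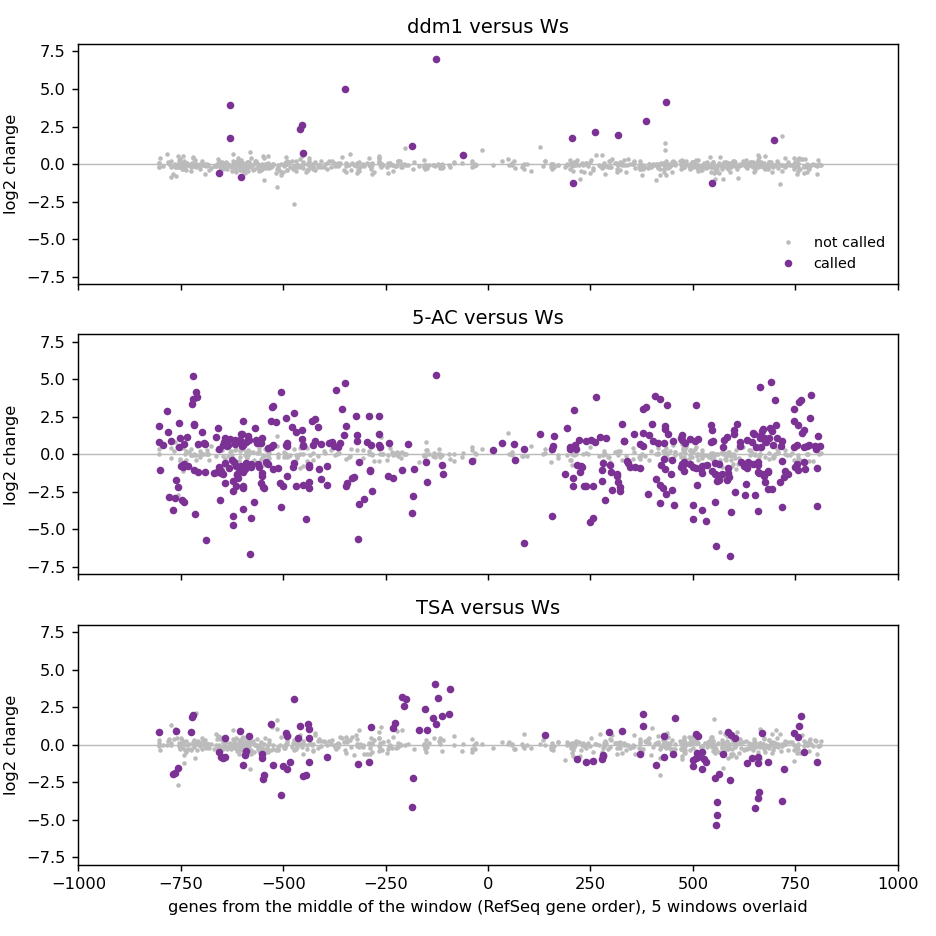
Log2 change of each of the 789 members against Ws in *ddm1*, 5-AC and TSA seedlings (vertical axis), by the number of genes from the middle of its window in RefSeq gene order (horizontal axis), with the 5 windows overlaid and called members in purple. The *ddm1* calls are 19 isolated points, while after TSA a run of raised members lies to the left of the middle.

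The central part of the windows held 143 members. In *ddm1* 4 of them were higher and 1 lower, and of the 646 in the outer parts 11 were higher and 3 lower. By chromosome from 1 to 5, the members higher in *ddm1* numbered 4, 1, 5, 2 and 3. These were 2.30%, 0.667%, 2.99%, 2.17% and 1.46% of the members of each window. With so few genes the shares by part and by window are imprecise, and no test was made of their differences.

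After 5-AC many members changed, in both directions. The signals of 203 members rose against Ws (25.7%) and those of 215 fell (27.2%), against 30.8% and 26.2% over all probe sets tested and 31.7% and 24.7% of the genes outside. Of the 203, 13 reached the filter only in 5-AC arrays and therefore had to differ. The median log2 change was -0.00 for the members, 0.05 over all probe sets and 0.08 outside. Changes of at least 2-fold were measured for 106 of those higher and 139 of those lower, and the largest was a fall of 6.78 on the log2 scale. When arrays were scaled to 3 reference genes the split became 143 higher and 299 lower, 32.4% higher among those called instead of 48.6%, and the median of all probe sets moved to -0.21. Of the reference genes themselves, AT4G34270 rose by 1.14 and AT5G25760 fell by 0.52 after 5-AC (limma adjusted p = 2.6e-05 and 0.0029), while AT2G28390 at 0.14 did not pass. The central part had 27 higher (18.9%) and 32 lower (22.4%) of 143.

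A second ribosomal gene had the largest rise beside AT1G36240. AT3G28500, the acidic ribosomal protein RPP2C of the 60S subunit, read 2.47, 3.73 and 3.96 in Ws, 3.87, 4.0 and 3.47 in *ddm1*, 8.66, 8.79 and 8.42 after 5-AC, and 5.59, 5.69 and 4.75 after TSA. The 5-AC arrays stood above all others and the TSA arrays above the Ws arrays. The log2 changes were 5.23 ± 0.37 after 5-AC (37.6-fold, limma adjusted p = 7.7e-07), 1.96 ± 0.37 after TSA (adjusted p = 0.0052) and 0.39 ± 0.37 in *ddm1* (adjusted p = 1.0).

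EXLA1 (AT3G45970), an expansin-like protein of the cell wall, rose after 5-AC. It read 5.20, 5.54 and 6.08 in Ws, 5.92, 5.32 and 5.97 in *ddm1*, 11.22, 10.99 and 9.13 after 5-AC, and 5.67, 5.16 and 6.32 after TSA. The log2 change after 5-AC was 4.84 ± 0.50 (limma adjusted p = 1.3e-05), and without 5-AC replicate 3 it was 5.50. The neighbouring EXLA3 (AT3G45960) rose by 1.76 ± 0.32 (adjusted p = 0.00066).

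Near the floor before treatment were the B3-type transcription factor AT3G46770 and the glycine-rich protein AT2G05530. AT3G46770 read 2.64, 2.66 and 2.60 in Ws and 6.77, 6.59 and 6.31 after 5-AC, a log2 change of 3.93 ± 0.13 (limma adjusted p = 3.8e-09). AT2G05530 read 2.69, 2.66 and 2.67 in Ws and 6.66, 7.15 and 6.66 after 5-AC, a change of 4.15 ± 0.19 (adjusted p = 4.5e-08). AT3G46770 reached the filter in 5-AC arrays alone and had to differ. In neither gene did *ddm1* pass the test. The other large rises after 5-AC were those of AT3G45730 (4.49), the aspartyl protease AT4G04460 (4.31), the AAA-type ATPase AT3G28580 (4.15) and AT1G44130 (3.88, or 3.15 without 5-AC replicate 1), which also reached the filter in 5-AC arrays alone.

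The lowest changes after 5-AC included enzymes and transport proteins. AT3G45160, an unknown protein, read 9.57, 10.59 and 10.18 in Ws and 3.01, 4.11 and 2.85 after 5-AC, a log2 change of -6.78 ± 0.37 (limma adjusted p = 1.3e-07). The terpene synthase AT3G29410 read 11.09, 10.55 and 10.47 in Ws, 11.62, 11.42 and 11.52 in *ddm1*, and 3.79, 2.84 and 5.65 after 5-AC. Its change was -6.61 ± 0.53 (adjusted p = 2.0e-06), with values of -5.98 and -7.39 without 5-AC replicates 2 and 3.

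MSRB5 (AT4G04830), a methionine sulfoxide reductase that repairs oxidised proteins, read 11.39, 11.56 and 11.53 in Ws, 11.02, 11.31 and 11.04 in *ddm1*, 5.58, 6.28 and 5.75 after 5-AC, and 9.80, 10.09 and 10.70 after TSA. The *ddm1*, 5-AC and TSA arrays all lay below the Ws arrays, and limma did not call the *ddm1* change. The log2 changes were -5.62 ± 0.24 after 5-AC and -1.29 ± 0.24 after TSA (limma adjusted p = 2.3e-08 and 0.0045). Its neighbour MSRB6 (AT4G04840) fell by 3.29 after 5-AC (adjusted p = 0.00062) and had a change of 1.02 after TSA that did not pass.

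Further large falls after 5-AC were measured for the methyltransferase AT5G37990 (-6.08), the lipid transfer protein family member AT2G10940 (-5.94, or -6.55 without 5-AC replicate 3), AT2G04039 (-5.68), LrgB (-4.73, or -5.57 without 5-AC replicate 3), which exports photorespiratory products from plastids, AT3G43110 (-4.48), the protein kinase AT5G37790 (-4.43) and AT3G44510 (-4.33). A further probe set of AT3G44510 gave -3.37. All 20 members named for 5-AC held their calls with each array left out in turn.

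**Figure D4:**
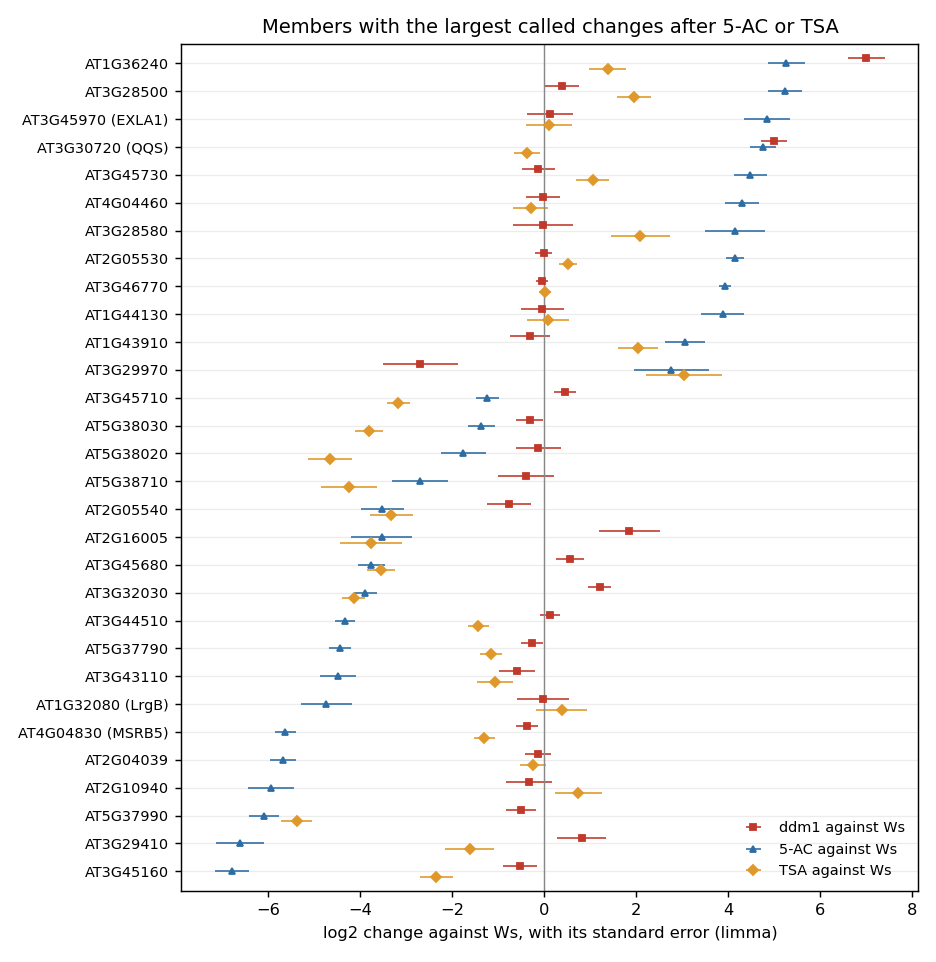
Log2 change against Ws (limma, bars give the standard error) in *ddm1*, 5-AC and TSA seedlings for the members with the largest called changes after 5-AC or TSA, ordered by the change after 5-AC, without AT2G07600 to AT2G07799. The 3 comparisons share the Ws arrays; AT1G36240 and QQS are the only 2 shown whose *ddm1* change lies above 4.

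Gene lists written from general knowledge had few members in the windows, to be read against 30.8% higher and 26.2% lower over all probe sets after 5-AC. Of 6 ribosomal protein genes on the list, which does not hold AT3G28500, 2 rose after 5-AC, RPL30A and AT5G39850 (2.41), and 2 fell, AT5G28060 (-1.24) and AT3G28900 (-1.22), with a median of -0.05. Of 3 members on the photosynthesis list 2 fell. PRK (AT1G32060), the phosphoribulokinase of carbon fixation, read 12.01, 12.30 and 11.95 in Ws and 7.56, 7.23 and 9.08 after 5-AC, a log2 change of -4.13 ± 0.37 (limma adjusted p = 4.9e-06). ATPC1 (AT4G04640), the gamma subunit of the chloroplast ATP synthase, fell by 1.91, and AT4G03520 had a change of -0.24 that did not pass. In *ddm1* none of these but RPL30A was called by limma, and the changes of PRK and ATPC1 there were 0.18 and 0.01. Both members on the defence list, the neighbouring and related glycosyltransferase genes UGT73B4 (AT2G15490) and UGT73B5 (AT2G15480), rose after 5-AC by 1.12 and 1.25. A further 3 probe sets of that list were named only through the study's tables and are not counted here. Under the methods' t-test the calls of PRK, ATPC1, UGT73B4 and UGT73B5 were lost (adjusted p = 0.055, 0.077, 0.12 and 0.10), and of all 418 members called after 5-AC it called 193.

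Neighbouring members did not always move together after 5-AC. Among 179 pairs of members that are adjacent genes, both were called in 56, and 32 of these had the same direction (57.1%), against 55.5% of such pairs outside the windows. AT3G28500 and AT3G28510 rose by 5.23 and 3.72, and AT5G37980 and AT5G37990 fell by 3.17 and 6.08. The glycine-rich protein genes AT2G05530 and AT2G05540 went opposite ways, at 4.15 and -3.52, and so did AT3G28540 and AT3G28550, at 1.95 and -4.0.

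The same count was made after 5-AC. A pseudogene-type locus lay directly beside 30.0% of the members higher after 5-AC, 35.8% of those lower and 36.4% of those not called.

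The 5-AC arrays were also compared with the *ddm1* arrays. Of the members 209 were higher after 5-AC (26.5%) and 205 lower (26.0%), against 30.8% and 25.7% over all probe sets tested. Of the 15 members raised in *ddm1*, 12 were lower after 5-AC than in *ddm1* and 0 higher by limma, and the other 3 did not pass (QQS, AT3G43740 and AT1G33680, at -0.24, 0.29 and -0.09). The same *ddm1* arrays chose these 15, so this direction is a description. The largest differences between both groups among all members were a fall of 7.42 for AT3G29410 and a rise of 5.45 for AT3G29970.

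After TSA 50 members rose against Ws (6.34%) and 65 fell (8.24%), against 7.11% and 7.29% over all probe sets tested and 6.59% and 6.77% of the genes outside. The median log2 change was 0.01 for the members and 0.02 over all probe sets. The count of 50 fell to 29 without TSA replicate 2 and to 30 without Ws replicate 1 or 2. By the methods' t-test 0 of the 115 calls held (adjusted p from 0.11 to 0.37). Of the 50, 13 came from 1 stretch of chromosome 2, from AT2G07600 to AT2G07799, and 9 reached the filter only in TSA arrays.

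That stretch held 17 members, of which 13 were higher and 0 lower after TSA, with a median log2 change of 1.90 and a range of 0.31 to 4.04. The pericentromere of chromosome 2 in the reference strain carries a large insertion of mitochondrial DNA there, and 14 of the 17 probe sets are of types that can detect related sequences. AT2G07722 read 2.97, 2.52 and 2.28 in Ws, 2.68, 2.50 and 2.2 in *ddm1*, 2.75, 2.2 and 2.25 after 5-AC, and 6.49, 6.96 and 6.44 after TSA. All TSA arrays lay above the 9 others, as for 15 of the 17 members. AT2G07722 and 7 more of the 13 raised members reached the filter in TSA arrays alone and had to differ. Its log2 change was 4.04 ± 0.23 (16.4-fold, limma adjusted p = 3.8e-06).

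AT2G07741 read 4.31, 5.32 and 4.53 in Ws and 8.59, 8.92 and 7.79 after TSA, a log2 change of 3.71 ± 0.31 (limma adjusted p = 4.3e-05). On a probe set for a single sequence, AT2G07728, one of those 8, read 2.12, 2.1 and 2.09 in Ws and 5.08, 6.09 and 4.52 after TSA, a change of 3.13 ± 0.30 (adjusted p = 9.6e-05). Each of these genes was lower in Ws than on any TSA array. AT2G07708 was raised after TSA by 0.96 and lowered after 5-AC by 1.81, reading 7.61, 7.48 and 7.60 in Ws, 8.28, 8.96 and 8.32 after TSA, and 5.81, 5.55 and 5.90 after 5-AC. By limma 0 of the 17 passed the threshold in *ddm1* in either direction, with changes from -0.29 to -0.00, and after 5-AC 0 were higher and 3 lower.

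Probe sets named for genes of the mitochondrial genome moved with this stretch. Of 15 such probe sets 12 were higher and 0 lower after TSA, with a median log2 change of 2.36, while in *ddm1* 0 were called by limma in either direction. Their medians in *ddm1* and after 5-AC were -0.07 and 0.03, and after 5-AC 2 were higher and 3 lower, with changes from -1.23 to 1.78. No probe sequences were at hand, so whether these probe sets tell transcripts of the nuclear insertion and of the mitochondrion apart is not known. Among the 12 raised after TSA were probe sets of matR, nad1 and nad5 with log2 changes of 1.29, 5.73 and 5.36 (both nad1), and 4.38. Those with these changes reached the filter in TSA arrays alone and therefore had to differ.

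**Figure D5:**
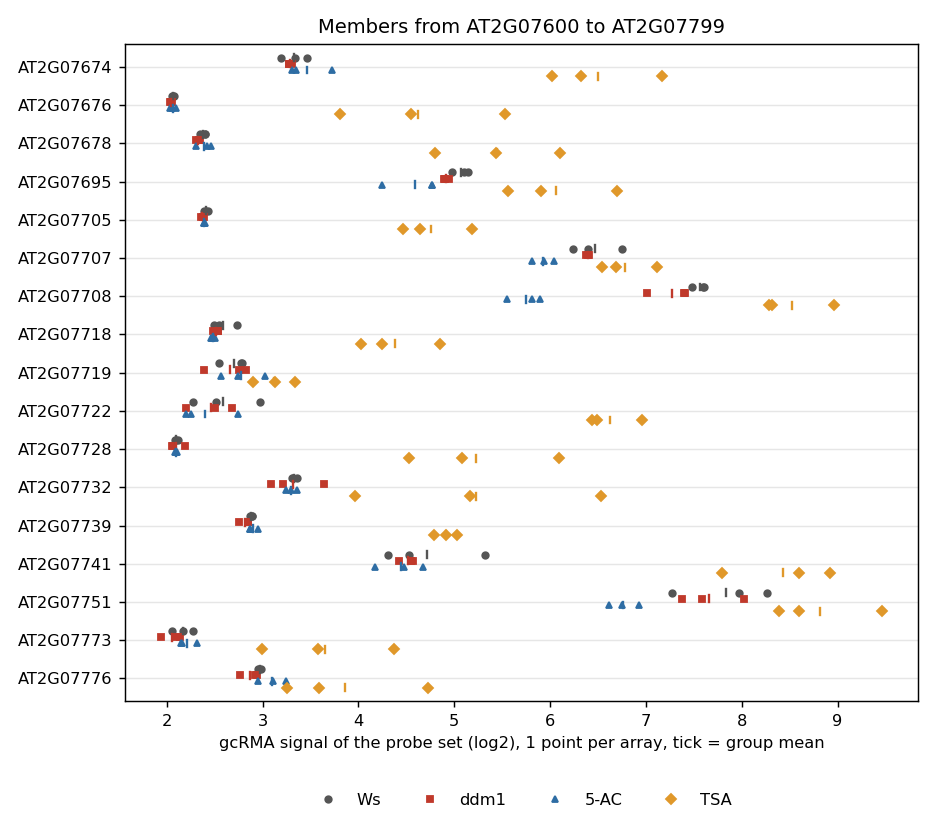
Log2 gcRMA signals of the 17 members from AT2G07600 to AT2G07799, 1 point per array with a tick at each group's mean. The TSA diamonds lie to the right of all other arrays for 15 of the 17, and 13 were called higher than Ws.

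Without the stretch 37 members were higher (4.79%) and 65 lower (8.42%) after TSA, against 7.11% and 7.29% over all probe sets tested. In the central part of the windows 19 of 143 members were higher (13.3%) and 4 lower (2.80%) after TSA. Without the stretch 6 of 126 there were higher (4.76%) and 4 lower (3.17%). Outside the stretch the largest rises were those of AT3G29970 (3.04 ± 0.82, limma adjusted p = 0.031) and the AAA-type ATPase AT1G43910 (2.04 ± 0.43, adjusted p = 0.0099). AT3G29970 read 7.30, 6.39 and 7.77 in Ws, 6.19, 3.18 and 4.02 in *ddm1*, 11.62, 9.08 and 9.05 after 5-AC, and 10.72, 10.21 and 9.65 after TSA. Its TSA call was lost without TSA replicate 1 or 2 or Ws replicate 1 or 2, with adjusted p up to 0.11.

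The methyltransferase AT5G37990 had the lowest change after TSA. It read 10.06, 10.84 and 10.20 in Ws, 9.24, 10.18 and 10.17 in *ddm1*, 3.79, 4.13 and 4.93 after 5-AC, and 4.93, 4.95 and 5.08 after TSA. Both treated groups lay below all Ws and *ddm1* arrays. The log2 changes were -5.38 ± 0.33 after TSA and -6.08 ± 0.33 after 5-AC (limma adjusted p = 6.3e-06 and 1.3e-07), and the *ddm1* change of -0.51 did not pass.

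The adjacent AT5G38020 and AT5G38030 fell more after TSA than after 5-AC. AT5G38020 read 9.33, 9.82 and 9.39 in Ws, 7.59, 8.46 and 7.22 after 5-AC, and 5.02, 3.87 and 5.70 after TSA. The log2 changes of the pair were -4.65 ± 0.48 and -3.81 ± 0.30 after TSA, against -1.75 and -1.36 after 5-AC. The direct differences of TSA from 5-AC were -2.90 ± 0.48 and -2.45 ± 0.30 (limma adjusted p = 0.00046 and 4.8e-05).

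The other named falls after TSA were AT5G38710 (-4.24), AT3G32030 (-4.13), AT2G16005 (-3.76), the oligopeptide transporter family member AT3G45680 (-3.54), the glycine-rich protein AT2G05540 (-3.32), AT3G45710 (-3.17) and AT3G45160 (-2.34). Beside these values the changes after 5-AC of AT3G45680, AT2G05540 and AT2G16005 were -3.75, -3.52 and -3.52. AT2G16005 read 5.98, 7.74 and 4.82 in Ws and 2.0, 2.0 and 3.26 after TSA, and its change was -2.98 without Ws replicate 2 and -4.44 without Ws replicate 3. Of 7 pairs of adjacent members with both called after TSA, 6 had the same direction (85.7%), against 36 of 58 outside the windows (62.1%). With so few pairs the shares are imprecise, and no test was made of their difference.

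In the direct comparison of TSA with 5-AC, 189 members were higher after TSA (24.0%) and 199 lower (25.2%), against 23.8% and 29.3% over all probe sets tested. The log2 difference of TSA from 5-AC was -5.13 ± 0.28 for QQS and 6.69 for AT2G10940, both past the threshold.

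In all, 330 of the 789 members were called by limma in no comparison with Ws. The same count was not made over all probe sets, so it is no result about the members. After 5-AC alone 53.0% of the members and 57.0% of all probe sets tested were called. A further 124 probe sets in the windows have their gene named only through the study's tables, which list genes that changed after 5-AC or in *ddm1*. They were therefore kept apart, and their 5-AC and *ddm1* calls are not evidence. In *ddm1* 2 of the 124 were higher (1.61%) and 0 lower by limma (8 and 11 without adjustment). Over all probe sets tested 1.35% were higher and 0.215% lower. The 2 higher were GLP6 (AT5G39100), a germin-like protein, which read 3.05, 3.10 and 3.05 in Ws and 4.93, 4.61 and 3.83 in *ddm1*, and RLP43 (AT3G28890), a receptor-like protein, which read 3.07, 3.02 and 2.80 in Ws and 4.43, 3.68 and 4.06 in *ddm1*. Their log2 changes were 1.39 and 1.09. After TSA 11 of the 124 were higher (8.87%) and 23 lower (18.5%), against 7.11% and 7.29% over all probe sets. The study's tables chose this set for changes against the same Ws arrays. CBP60G (AT5G26920), a regulator of salicylic acid synthesis, rose by 2.45.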

How the data were processed

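The log2 values used here were deposited by the authors, who computed 1 value per probe set with gcRMA in Bioconductor, per the labels and the methods; its background adjustment for probe sequence and quantile normalization pull low signals to a floor, so changes of dim probe sets depend on the background level. Arrays give no molecule counts, and their number (3 per group) limits the precision. The methods' present calls were not used; the signal filter of 2.98 on the second-highest array stands in for them.

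The platform's table named 13513 probe sets for 1 gene and 503 for several; 8730 were not in it, of which 1790 are named by the study's tables and were kept apart. RefSeq (assembly TAIR10.1) gave gene types, names and gene order only. The files name no genome build, so no coordinates or sequences are given.

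The test was limma 3.58.1 (R 4.3.3), with lmFit and eBayes run on 17197 probe sets of 12 arrays with 1 coefficient per group, two-sided, at a Benjamini-Hochberg threshold of 0.05, and checked on simulated data. Other steps used Python 3.11.15 with numpy 2.4.6, pandas 2.3.3 and matplotlib 3.10.9. Comparisons with Ws share the Ws arrays. Named members are all those called in *ddm1*, the 10 highest and 10 lowest called changes without overlap after 5-AC and after TSA, list members and neighbours; the direct comparisons' extremes, pairs and members named only through the study's tables were picked after their values were seen. The members and lists were chosen with earlier results of these data known.

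Arrays with the same replicate number deviated together between *ddm1* and Ws (r = 0.41, 0.52 and 0.23), 5-AC and *ddm1* (0.26, 0.12 and 0.11) and TSA and 5-AC (0.13, 0.13 and 0.18), so a fit with the number as a block was also made. Other alternatives were the filter, the methods' t-test, scaling, member definitions and leaving out each array. The harvest is given as 10 days by the labels and later by the study's methods.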

Additional observations from a re-analysis of the deposited data

How the results depend on the processing

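No log2 change that passed the threshold in either fit turned its sign; 35 values of 17 changes that passed in neither did, all of changes of at most 0.37 in size, that of QQS after TSA among them. Of 1593 alternative values for 117 log2 changes of single genes, 1456 kept their side of the threshold, 130 lost the call and 7 gained one; of 190 alternative counts, 149 stayed within 1.5 times. The cause of the others was not tested, except where fewer genes or arrays entered. With the replicate number as a block on all 12 arrays, 16 members were higher and 5 lower in *ddm1*, 209 and 227 after 5-AC, 54 and 72 after TSA, 214 and 214 for 5-AC against *ddm1*, and 203 and 204 for TSA against 5-AC; same-numbered arrays of 5-AC and Ws (r = 0.19, -0.06 and -0.08) and of TSA and Ws (0.24, -0.06 and 0.15) did not all deviate together. The block with only the 2 groups compared, chosen after seeing the data, gave 1 lower in *ddm1* and 19 higher and 43 lower after TSA. Only the 2 groups compared gave 2 lower in *ddm1* and 33 higher after TSA, and scaling to 3 reference genes gave 7 lower in *ddm1*; after TSA that scaling gave 36 higher and 68 lower. Keeping probe sets with a mean above the median gave 4 higher and 1 lower in *ddm1*, 130 higher after 5-AC, 38 lower after TSA, 134 higher and 133 lower for 5-AC against *ddm1*, and 129 lower for TSA against 5-AC. The methods' t-test after Benjamini-Hochberg adjustment, the methods' own threshold, gave 2 higher and 0 lower in *ddm1* (25 and 39 without adjustment), 103 and 94 after 5-AC, 0 and 0 after TSA (66 and 79 without adjustment), 124 and 118 for 5-AC against *ddm1*, and 76 and 74 for TSA against 5-AC. The central part of the windows, with fewer members, gave 4 and 1 in *ddm1*, 27 and 32 after 5-AC, 19 and 4 after TSA, 25 and 33 for 5-AC against *ddm1*, and 39 and 27 for TSA against 5-AC. Leaving out each array in turn gave 12 to 15 higher and 1 to 4 lower in *ddm1*, 177 to 204 and 196 to 213 after 5-AC, 29 to 54 and 46 to 66 after TSA, 180 to 218 and 181 to 203 for 5-AC against *ddm1*, and 169 to 190 and 176 to 201 for TSA against 5-AC.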
